A study of Homo sapiens with 14 samples.

Results

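Retinoic acid synthesis, breakdown and reception were followed through 10 genes in MEL1, a line of human embryonic stem cells. The genes are set by their role in the pathway: the synthesis enzymes ALDH1A1, ALDH1A2 and ALDH1A3, the retinaldehyde reductase DHRS3, the breakdown enzymes CYP26A1 and CYP26B1, the carrier protein CRABP2 and the receptors RARA, RARB and RARG. All 10 were found by symbol among the 60624 gene identifiers listed in each library. They were measured by RNA sequencing in 14 libraries of 9 groups, which the labels place in 3 batches.

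Batch 1 held 1 library each of undifferentiated cells (hPSC), definitive endoderm (DE), pancreatic progenitors from stepwise differentiation (PP2) and β-like cells made from hPSCs without an expansion step (SC-β). Batch 2 held 2 libraries each of expandable pancreatic progenitors (ePPs) at passage 9 (ePP-P9) and passage 21 (ePP-P21) and of β-like cells made from ePPs (ePP-β). Batch 3 held 2 libraries each of pancreatic progenitors kept for 7 days with solvent (DMSO) or I-BET151 (1 μM), which blocks the BET bromodomain proteins that read acetylated histones. The methods describe the line as MEL1 INS GFP/W, in which 1 insulin allele carries a GFP reporter, so every group shares 1 line and 1 edited allele. The hPSCs and the ePPs were grown on feeder cells, and the ePP medium contained I-BET151. A synthetic RAR agonist, TTNPB, was present at 3 nM on days 6 to 8 of the differentiation, so each group from PP2 onward descends from cells that had received it. Nothing in the labels says that replicates were separate cultures, so the tests measure the spread between 2 libraries, which may be technical.

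Retinoic acid is made from vitamin A by oxidation of retinol to retinaldehyde and then, through the ALDH1A enzymes, to the acid. CYP26 enzymes oxidise it for removal, and the retinoic acid receptors, paired with RXR proteins, bind it and act on direct repeats in DNA. In the embryo a retinoic acid signal from mesoderm patterns the foregut and is needed for the dorsal pancreas to form, which is why a RAR agonist is part of many differentiation protocols.

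Levels are given in TPM, which scales reads by transcript length and by library, so they can be compared between genes. Summed over all identifiers a library held 908685 to 985497 TPM, and 14982 to 17578 genes reached 1 TPM. Read depth cannot be recovered from TPM. Defining markers were where the labels place them, with 3401 TPM of POU5F1 in hPSC, 1140 TPM of SOX17 in DE, 251 TPM of PDX1 in PP2 and between 10916 and 20657 TPM of INS in the β-like libraries, against at most 3.03 TPM of INS elsewhere. The β-like libraries also held other islet hormones. GCG was at 74280 TPM in SC-β, above INS, and reached 14110 TPM in ePP-β, and SST was at 2757 TPM in SC-β. Mesenchyme markers (9 genes) summed to 1509 TPM in PP2 and 2693 TPM in SC-β, against 43.5 to 227 TPM in the other 12 libraries. In such bulk samples fewer cells of a type and less RNA per cell cannot be told apart.

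Retinoic acid receptors bind direct repeats of a hexamer, and the best-known spacing is 5 letters. The reference promoter windows of RefSeq (GRCh38.p14, 250 bases before to 50 after each start) were searched for 2 hexamers, each reading AGGTCA or AGTTCA or GGGTCA or GGTTCA, on 1 strand with 5 letters between them, reading both strands. All 10 genes had at least 1 window, 19 in all. Windows of CYP26A1 and RARB, a breakdown enzyme and a receptor, each held 1 match, and those of the other 8 genes held none. Among all reference windows a match was found in 31 of 35116 (0.0883%). With 2 letters between the hexamers 14 windows (0.0399%) matched, none of them at these 10 genes. The 2 matches are shown because they were the ones found at these genes. Capitals mark the repeat with its spacer, and each line is written 5′ to 3′ on the strand that carries the match.
CYP26A1, chr10:93073796-93073825, minus strand: acaattAGTTCACCCAAAGTTCAtctttaa
RARB, chr3:25428204-25428233, plus strand: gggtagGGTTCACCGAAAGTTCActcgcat
Over the 17 capital letters, counted from 1 at the 5′ end, the CYP26A1 match differs from the RARB match by 2 substitutions, G1A and G9C, with the RARB letter written first. The CYP26A1 match lies 90 to 74 bases before the start at 93073893 and overlaps an exon of 1 of the 6 GENCODE transcripts of the gene. The RARB match lies 53 to 37 bases before the start at 25428263 and overlaps an exon of 3 of its 23 transcripts. A match of letters does not show that a receptor binds there.

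Most of the genes fell into an early and a late set. CYP26A1, ALDH1A3 and RARG were highest in DE and CRABP2 in hPSC, whereas ALDH1A1, ALDH1A2, CYP26B1 and RARB reached at least 1 TPM in every ePP library and were highest there or in β-like cells. RARA was above 10 TPM in all 14 libraries, and DHRS3 was above 1 TPM in all of them and highest in SC-β.

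**Figure D1:**
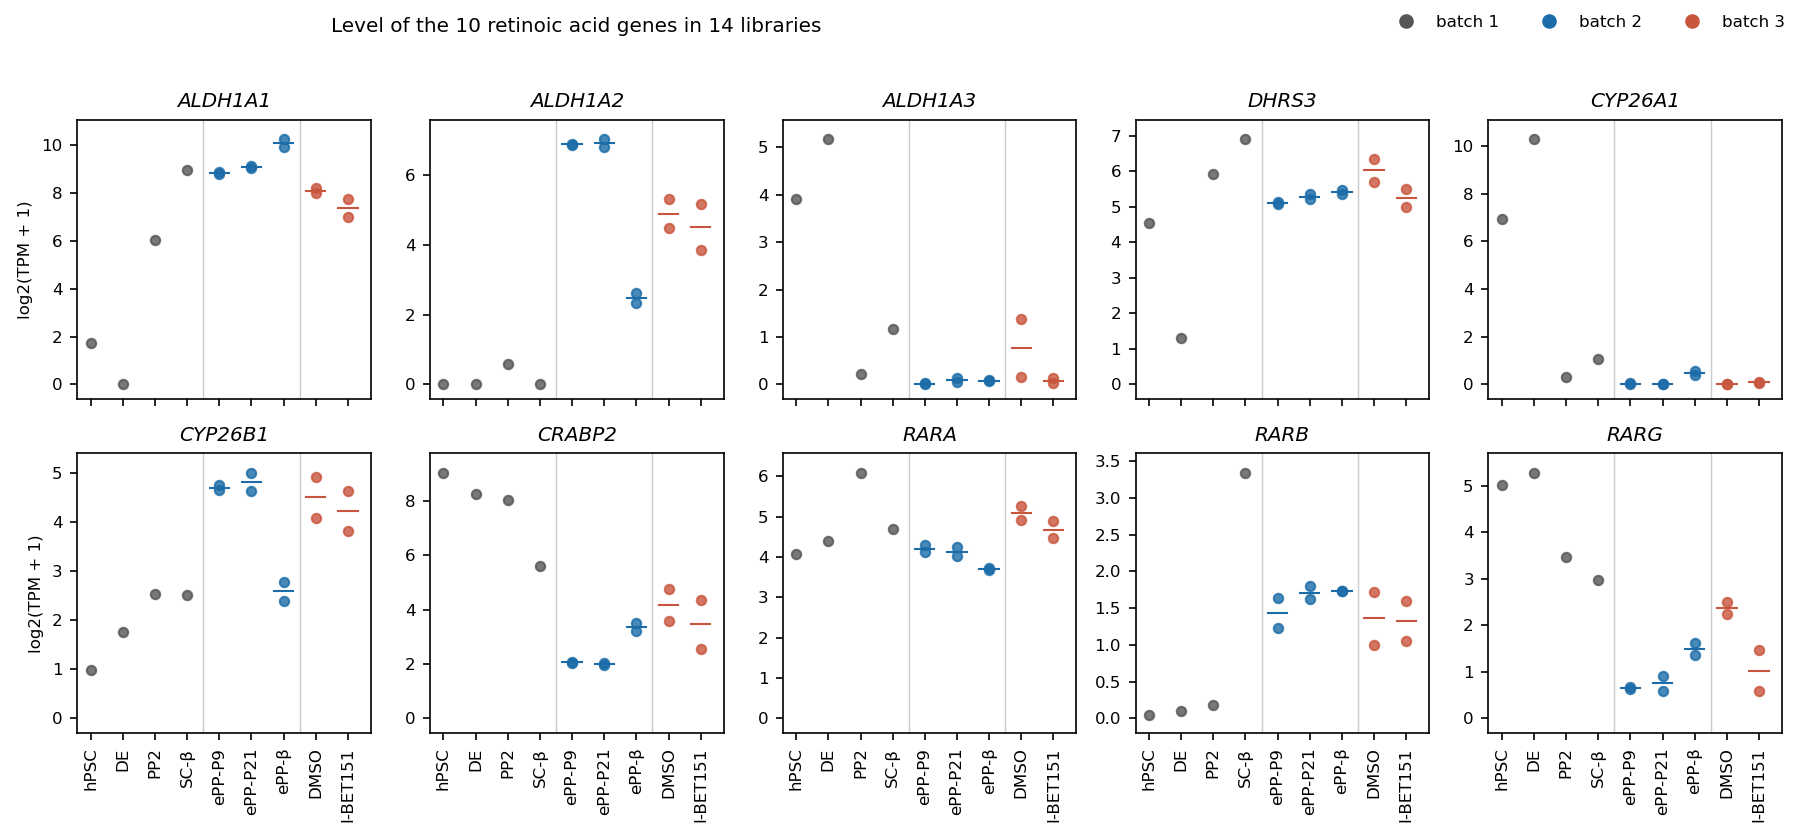
Level of each gene as log2(TPM + 1) in 14 libraries, on a separate vertical axis for each gene. Each point is 1 library, horizontal lines are means of 2 libraries and colours give the batch. ALDH1A2 and CYP26B1 stand highest in the ePP and batch 3 libraries, and CYP26A1 and ALDH1A3 in hPSC and DE.

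ALDH1A1 (chr9:72900671-73080442, GRCh38, minus strand) encodes a cytosolic retinaldehyde dehydrogenase. It was at 2.34 TPM in hPSC, listed at 0 in DE and at 64.8 TPM in PP2. The ePP-P9 libraries held 438 and 466 TPM of ALDH1A1 and the ePP-P21 libraries 528 and 551 TPM. The ePP-β libraries stood highest of all for this gene, at 1212 and 978 TPM, and SC-β was at 499.7 TPM. DMSO libraries had 290.2 and 252 TPM and I-BET151 libraries 126 and 213 TPM. No neighbouring groups in this order of ALDH1A1 levels overlapped, but 4 of the 9 groups had a single library and the batches differed.

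ALDH1A2 (chr15:57953424-58497866, minus strand) encodes the enzyme that makes most of the retinoic acid of the early embryo. It was near 0 in hPSC (0.000314 TPM), DE (0.00188 TPM) and SC-β (0.00912 TPM), and at 0.501 TPM in PP2. The ePP-P9 libraries were at 116 and 117 TPM and the ePP-P21 libraries at 111 and 129 TPM, so the passages overlapped. DMSO libraries held 38.4 and 21.6 TPM and I-BET151 libraries 34.7 and 13.4 TPM, again with overlap, and ePP-β libraries were down to 4.03 and 5.19 TPM. The level of ALDH1A2 in the ePP libraries was above that of between 91.7% and 92.9% of the genes at 1 TPM or more. On the opposite strand ALDH1A2-AS1 and AQP9 share exon bases with ALDH1A2, but neither was above 0.0733 TPM.

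ALDH1A3 (chr15:100877714-100916626, plus strand), a further member of the family, showed the reverse. It was at 13.98 TPM in hPSC and 35.1 TPM in DE, then at 0.163 TPM in PP2 and 1.24 TPM in SC-β. The 4 ePP and 2 ePP-β libraries did not exceed 0.0946 TPM, and 1 ePP-P9 library listed ALDH1A3 at 0. DMSO replicate 1 stood apart from the other batch 3 libraries at 1.62 TPM, against 0.112 TPM in DMSO replicate 2 and 0.0162 and 0.0921 TPM in I-BET151. Its antisense gene ALDH1A3-AS1 shares 1715 exon bases with it and stayed at or below 0.224 TPM. A long noncoding RNA on the same strand, ENSG00000272639, shares 63 exon bases with ALDH1A3 and reached 4.80 TPM, so the low values of ALDH1A3 are uncertain.

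The makeup of the ALDH1A family therefore differed between groups. ALDH1A3 made up 85.7% of the summed ALDH1A TPM in hPSC and ALDH1A1 made up 99.0% in PP2, 99.8% in SC-β and 99.5% and 99.7% in the ePP-β libraries. In the ePP libraries ALDH1A2 contributed between 17.3% and 20.9%, beside 79.1% to 82.7% for ALDH1A1. In batch 3 the ALDH1A2 share was 11.6% and 7.89% in DMSO and 21.6% and 5.89% in I-BET151, so the I-BET151 libraries lay on both sides of the DMSO libraries. The summed ALDH1A level was 16.3 TPM in hPSC, 568 TPM on average in ePP-P9 and 1100 TPM in ePP-β, groups that cannot be told apart from their batches where these differ.

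**Figure D2:**
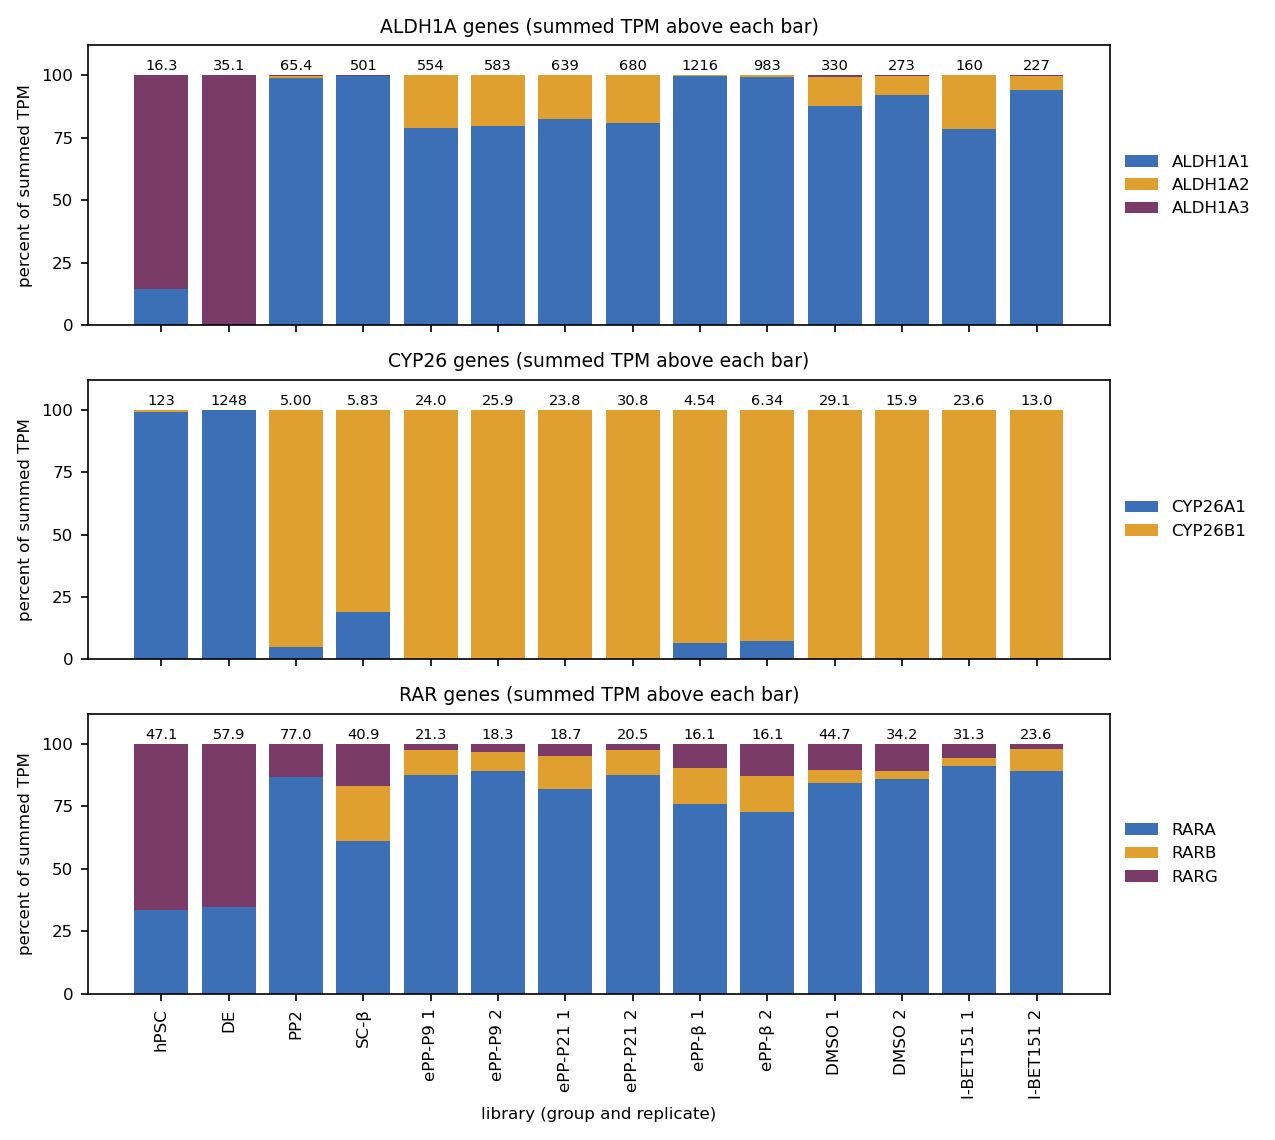
Share of each gene in the summed TPM of the ALDH1A, CYP26 and RAR families, in percent, for 14 libraries, with the summed TPM above each bar. ALDH1A2 takes a visible share in the ePP and batch 3 libraries, CYP26A1 gives way to CYP26B1 after DE, and RARG to RARA.

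DHRS3 (chr1:12567910-12618210, minus strand) encodes a reductase that turns retinaldehyde back into retinol and so limits synthesis. It was at 22.2 TPM in hPSC, 1.49 TPM in DE, 59.9 TPM in PP2 and 118.8 TPM in SC-β. The 4 ePP libraries held 33.1, 34.4, 39.9 and 36.5 TPM of DHRS3 and the ePP-β libraries 43.3 and 40.4 TPM. DMSO libraries were at 79.9 and 51.3 TPM and I-BET151 libraries at 44.4 and 31.04 TPM. Unlike the ALDH1A genes, DHRS3 was above 1 TPM everywhere, with its lowest level in DE.

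CYP26A1 (chr10:93073475-93077885, plus strand), the classical retinoic acid hydroxylase, was at 122 TPM in hPSC and 1246 TPM in DE. In PP2 it was at 0.253 TPM and in SC-β at 1.10 TPM. It was listed at 0 in both ePP-P21 libraries and DMSO replicate 2 and did not exceed 0.0787 TPM in the other ePP and batch 3 libraries, while the ePP-β libraries had 0.307 and 0.459 TPM. A long noncoding RNA on the same strand, ENSG00000285846, shares 750 exon bases with CYP26A1 and was at 55.1 TPM in hPSC and 538 TPM in DE. How the reads were divided between this gene and CYP26A1 is not known, so both levels are uncertain, but both were at most 1.10 TPM in the 12 later libraries.

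CYP26B1 (chr2:72129238-72147862, minus strand), the other hydroxylase, was at 0.967 TPM in hPSC, 2.37 TPM in DE, 4.75 TPM in PP2 and 4.73 TPM in SC-β. The ePP-P9 libraries held 23.97 and 25.9 TPM and the ePP-P21 libraries 23.8 and 30.8 TPM. DMSO libraries had 29.1 and 15.9 TPM of CYP26B1, I-BET151 libraries 23.6 and 12.95 TPM and ePP-β libraries 4.23 and 5.88 TPM. The ePP, DMSO and I-BET151 libraries were thus above all others. The DMSO range took in both ePP-P9 libraries and overlapped that of I-BET151. CYP26A1 made up 99.2% of the summed CYP26 TPM in hPSC and 99.8% in DE, and CYP26B1 made up 94.9% in PP2 and 93.0% on average in ePP-β.

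CRABP2 (chr1:156699606-156705816, minus strand) encodes a small cytosolic protein that carries retinoic acid to the receptors. It was at 521 TPM in hPSC, 304 TPM in DE, 263 TPM in PP2 and 48.1 TPM in SC-β. The 4 ePP libraries held only 3.14, 3.19, 2.91 and 3.08 TPM of CRABP2, a narrow range, and the ePP-β libraries 8.28 and 10.3 TPM. DMSO libraries were at 26.2 and 10.9 TPM and I-BET151 libraries at 19.7 and 4.82 TPM, which overlapped. Among genes at 1 TPM or more CRABP2 stood above 98.6% in hPSC and above 18.0% to 19.0% in the ePP libraries.

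RARA (chr17:40309180-40357643, plus strand), the most widely expressed of the receptors, was at 15.8 TPM in hPSC, 20.1 TPM in DE, 66.8 TPM in PP2 and 25.00 TPM in SC-β. The ePP libraries had 18.6, 16.4, 15.3 and 17.9 TPM of RARA and the ePP-β libraries 12.2 and 11.7 TPM. DMSO libraries had 37.8 and 29.5 TPM and I-BET151 libraries 28.5 and 21.02 TPM. RARA-AS1, on the other strand, shares 556 exon bases with RARA and was between 1.57 and 8.81 TPM, and use of strand in the counting was not stated, so part of these reads could belong to either gene.

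RARB (chr3:24687887-25597932, plus strand), a receptor whose own gene is a textbook target of retinoic acid, was at 0.0340 TPM in hPSC, 0.0724 TPM in DE and 0.129 TPM in PP2. It was at 9.11 TPM in SC-β, its highest level. In the 10 other libraries RARB lay between 1.00 and 2.47 TPM, a narrow band. The ePP-β libraries (2.33 and 2.34 TPM) lay within the range of ePP-P21 (2.47 and 2.08 TPM) and just above ePP-P9 (2.13 and 1.35 TPM), DMSO (2.29 and 1.00 TPM) and I-BET151 (1.07 and 2.03 TPM), and those 3 groups overlapped one another. CYP26A1 and RARB, whose windows carry the 2 sequences printed above, had unlike levels in hPSC and DE, where CYP26A1 was at 122 and 1246 TPM and RARB under 0.1 TPM, and both were under 0.3 TPM in PP2. Over the 9 group means their r was -0.573.

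RARG (chr12:53210567-53232980, minus strand), the main retinoic acid receptor of adult skin, was at 31.3 TPM in hPSC, 37.7 TPM in DE, 10.2 TPM in PP2 and 6.81 TPM in SC-β. The ePP libraries had 0.554, 0.603, 0.881 and 0.508 TPM of RARG and the ePP-β libraries 1.56 and 2.07 TPM. DMSO libraries had 4.67 and 3.73 TPM and I-BET151 libraries 1.75 and 0.509 TPM. RARG made up 66.4% of the summed RAR TPM in hPSC and 65.1% in DE, whereas RARA made up 86.7% in PP2, 82.1% to 89.4% in ePP libraries and 61.1% in SC-β. RARB took 22.3% of that sum in SC-β and 14.5% in both ePP-β libraries.

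The steps of the differentiation were compared within batch 1 with 1 library per stage, so they have no replicate check and no test. A gene is counted as past the fold when its difference on the log2(TPM + 1) scale was beyond 1 in size, among genes with at least 1 TPM in either library. A gene under 1 TPM in 1 library was thus compared only through the other, where it was higher. Such a difference is no independent support. From hPSC to DE, 8 of the 10 genes could be compared. CYP26A1 (by 3.34) and ALDH1A3 (by 1.27) were higher past the fold and DHRS3 (by -3.22) and ALDH1A1 (by -1.74, to a listed 0) were lower, beside 10.8% of all genes higher and 16.1% lower. CYP26B1 (0.78), CRABP2 (-0.78), RARA (0.33) and RARG (0.26) differed by less, and ALDH1A2 and RARB were under 1 TPM in both libraries. ALDH1A1 was compared only through hPSC, and CYP26B1 and the pathway gene RXRG only through DE. Of the other 22 retinoid pathway genes 18 were compared. RXRG, a partner of the RARs, was higher past the fold, and LRAT, which stores retinol as esters (84.1 to 3.82 TPM), and CRABP1, a second carrier (187 to 39.1 TPM), were lower.

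From DE to PP2, the step during which TTNPB was given, 6 of 8 compared genes were past the fold. ALDH1A1 (by 6.04), DHRS3 (by 4.61) and RARA (by 1.68) were higher, and CYP26A1 (by -9.96), ALDH1A3 (by -4.96) and RARG (by -1.80) were lower, beside 27.2% of all genes higher and 9.83% lower. CYP26B1 (0.77) and CRABP2 (-0.21) were not past the fold. ALDH1A2 and RARB were under 1 TPM in both libraries and were not compared. ALDH1A1 was compared only through PP2, and CYP26A1 and ALDH1A3 only through DE. The median difference of the 8 was 0.28 and that of all 18578 genes 0.38.

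Among 20 other pathway genes compared over this step 8 were higher and 3 lower, beside 27.2% and 9.83% of all genes. The higher ones included the retinol carrier RBP4 (0.150 to 55.8 TPM), its receptor STRA6 (4.72 to 28.5 TPM) and the receptor partners RXRA (38.1 to 138.2 TPM) and RXRB (14.01 to 54.4 TPM). FABP5, a fatty acid binding protein that also carries retinoic acid, was lower (446 to 92.5 TPM), as were CRABP1 and RXRG. Of 12 genes listed as retinoid targets 7 were compared and 6 were higher past the fold, with a median difference of 3.33. Among them were ZNF703 (by 4.93), MEIS2 (4.66), MEIS1 (3.33), TSHZ1 (3.30) and TGM2 (2.02). MEIS1, MEIS2, TSHZ1 and TGM2, like RBP4, were compared only through PP2. Mesenchyme markers moved with this step, with 8 of 8 compared genes higher, as did liver markers, with 5 of 5 higher and a sum of 3.91 TPM in DE and 3465 TPM in PP2. So did stomach and intestine markers, with 4 of 4 higher (VIL1 from 1.29 to 106.6 TPM), and endothelial markers, with 3 of 4 higher (CDH5 from 0.236 to 22.3 TPM). Under 1 TPM in DE, and so compared only through PP2, were COL3A1, PDGFRB, DCN and LUM and all liver markers but APOA1. The same was true of CDX2, TFF1 and TFF2 and of CDH5, PECAM1 and TEK. These marker counts are therefore partly fixed by the filter. The part of these cell types in the differences between DE and PP2 was not tested.

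From PP2 to SC-β, 9 genes were compared. RARB (by 3.16) and ALDH1A1 (by 2.93) were higher and CRABP2 (by -2.43) and RARA (by -1.38) lower, beside 12.7% and 22.1% of all genes. DHRS3 (0.98) and ALDH1A3 (0.95) lay just inside the fold, and CYP26A1 (0.74), RARG (-0.51) and CYP26B1 (-0.01) differed by less. RARB, ALDH1A3 and CYP26A1 were compared only through SC-β. ALDH1A2 was under 1 TPM in both libraries and was not compared. Of 20 other pathway genes compared LRAT (2.96 to 50.3 TPM), the retinol dehydrogenase RDH10 (8.69 to 29.1 TPM) and RXRG (0.105 to 4.59 TPM) were higher past the fold, and the corepressor NCOR1 and the coactivators NCOA1 and NCOA2 were lower. Of 9 target genes compared 2, TGM2 and RARRES1, were higher and 3, among them MEIS2 and ZNF703, lower. RXRG and RARRES1 too were compared only through SC-β. Liver markers summed to 29050 TPM in SC-β, of which TTR, also a gene of islet cells, made up 24730 TPM.

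**Figure D3:**
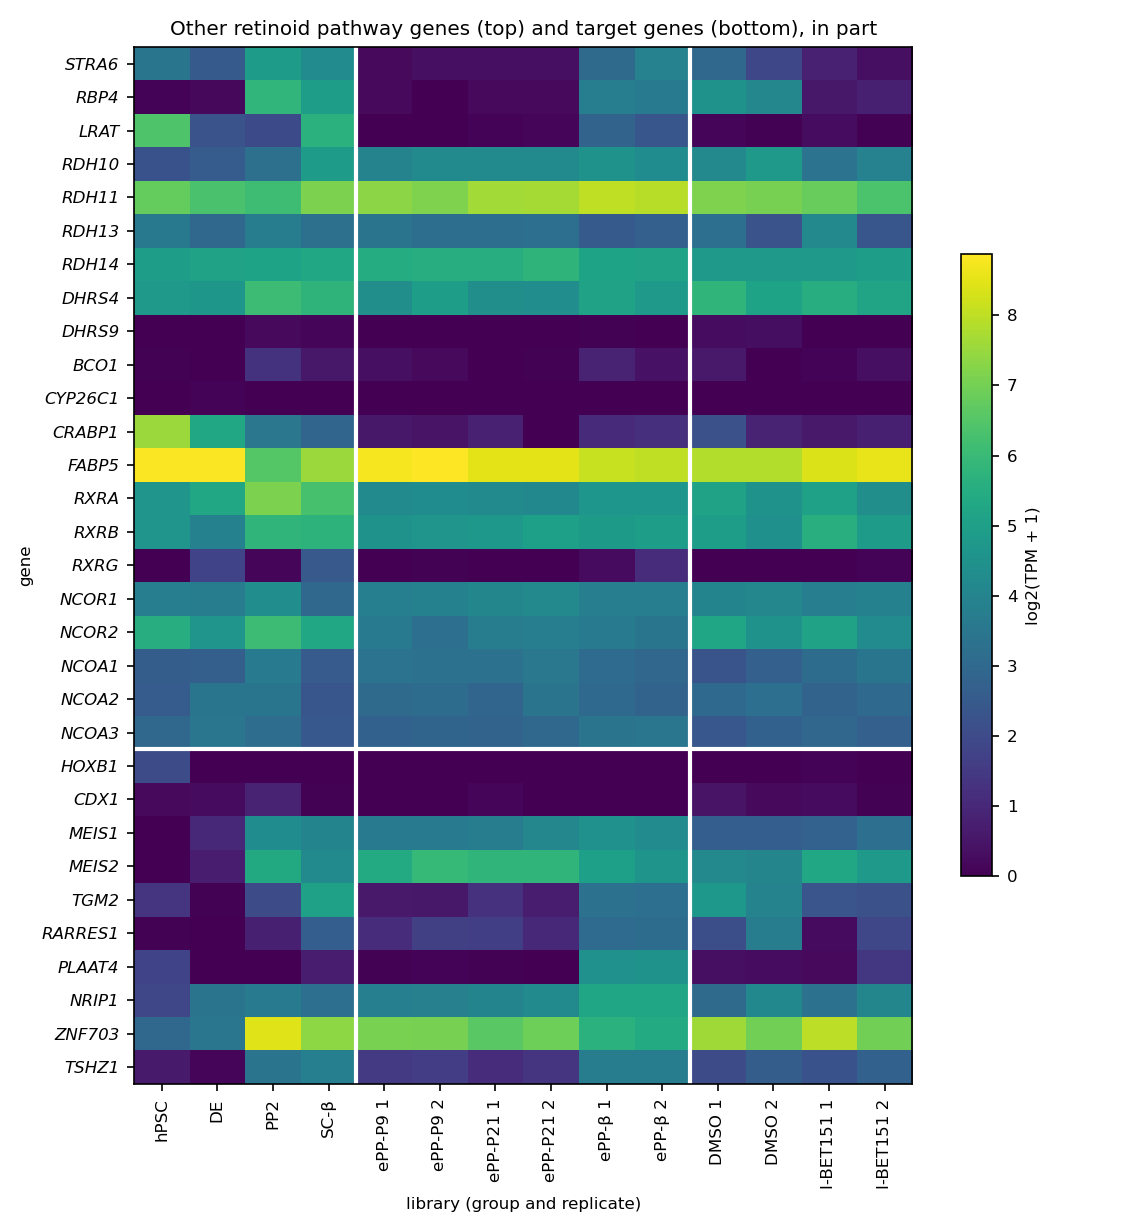
Level as log2(TPM + 1), by colour, of other retinoid pathway genes (top) and retinoid target genes (bottom), not all of either list, in 14 libraries, with white lines between batches. STRA6, RBP4 and LRAT are low in the ePP libraries and higher in the ePP-β libraries, and ZNF703 runs the other way.

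Setting ePP-β against ePP asked which of these genes differ once expandable progenitors are turned into β-like cells. The ePP medium contained I-BET151, and the differentiation media listed in the methods do not. The change of cell type and the change of medium therefore cannot be told apart. ALDH1A1 and CRABP2 rose and ALDH1A2 and CYP26B1 fell. A gene was called when the Benjamini-Hochberg adjusted p of limma, over all 18076 genes tested on log2(TPM + 1), was under 0.05 and the log2 fold change beyond 1 in size. By this rule 2 genes were called higher and 2 lower of the 8 tested, beside 17.9% of all tested genes called higher and 9.86% lower. ALDH1A3 and CYP26A1 did not pass the filter of 1 TPM in 2 libraries.

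ALDH1A2 showed the largest difference of the 8. Its mean was 118.2 ± 7.90 TPM (SD, n = 4) in ePP and 4.61 ± 0.82 TPM (n = 2) in ePP-β, a log2 fold change of -4.42 (SE 0.12, limma adjusted p = 5.48e-06). The breakdown enzyme CYP26B1 fell too, from 26.1 ± 3.27 to 5.06 ± 1.17 TPM, a log2 fold change of -2.17 (SE 0.17, limma adjusted p = 0.000151). For both genes every ePP library lay above both ePP-β libraries.

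ALDH1A1 rose from 495.6 ± 52.6 to 1095 ± 165.7 TPM, a log2 fold change of 1.14 (SE 0.10, limma adjusted p = 0.000231). It passed the fold narrowly, and without ePP-β replicate 1 the log2 fold change was 0.98 and it was no longer called. CRABP2 rose from 3.08 ± 0.12 to 9.27 ± 1.39 TPM, by 1.33 (SE 0.16, limma adjusted p = 0.000799). In a fit of all 10 replicated libraries together its limma adjusted p was 0.0777.

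The receptors differed by less than the fold. RARA was at 17.07 ± 1.48 TPM in ePP and 11.9 ± 0.33 TPM in ePP-β (log2 fold change -0.48, limma adjusted p = 0.0164), and RARG at 0.636 ± 0.167 and 1.82 ± 0.36 TPM (0.78, limma adjusted p = 0.00897). RARG was called with pseudocounts of 0.1 and 0.01, at log2 fold changes of 1.39 and 1.52, since a pseudocount of 1 is close to its level. It was under 1 TPM in all 4 ePP libraries and passed the filter only through ePP-β, where it is higher, so these values are no independent support. DHRS3 (0.21, limma adjusted p = 0.0708) and RARB (0.16, limma adjusted p = 0.476) were not called. The interval of the RARB log2 fold change ran from -0.28 to 0.61, but under quantile normalization it was -0.32, so no direction is given.

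**Figure D4:**
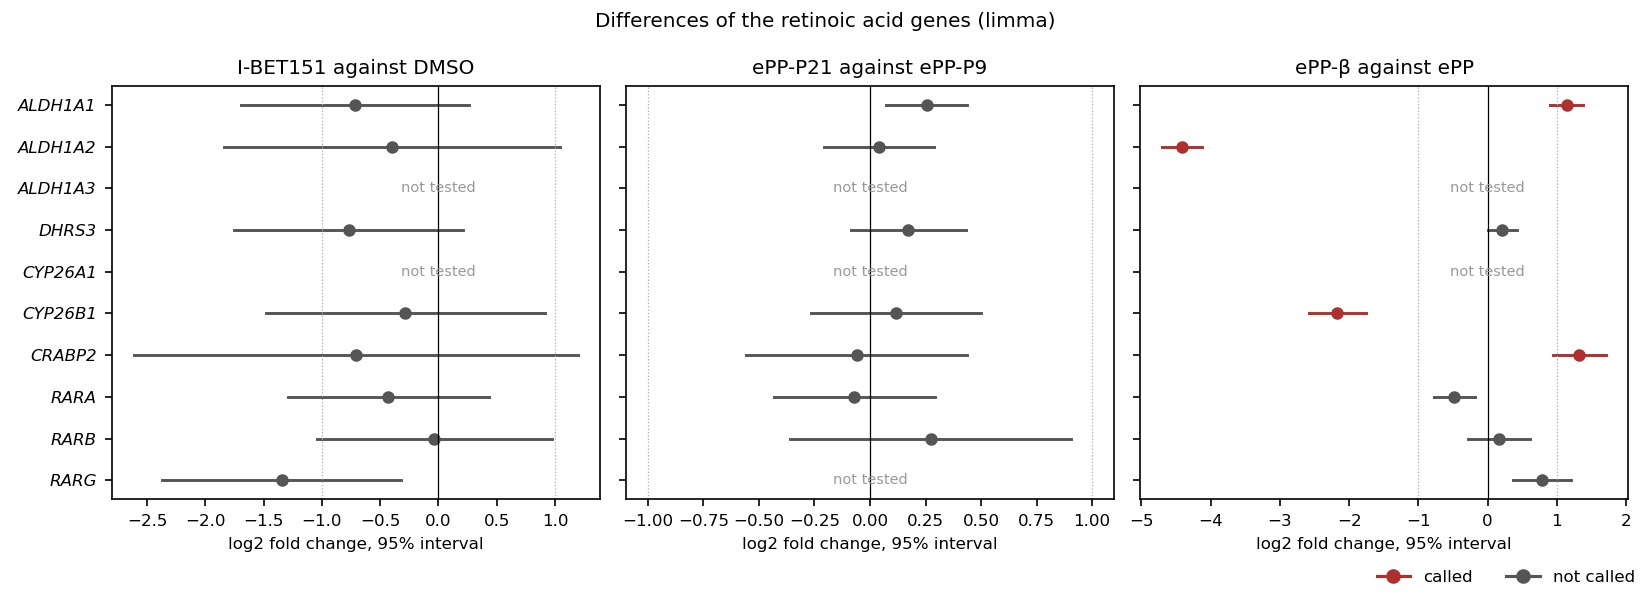
log2 fold change of each gene with its 95% interval (limma on log2(TPM + 1)) in 3 comparisons, each on its own horizontal axis, with dotted lines at 1 and -1. Called genes are red. Between ePP-β and ePP 4 genes are called, and in the other comparisons none.

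Over all tested genes 17.9% were called higher and 9.86% lower in this comparison. Of the other pathway genes 18 of 22 were tested, 4 were called higher and 0 lower. Among them were STRA6 (log2 fold change 3.16, SE 0.26), RBP4 (3.54, SE 0.16) and LRAT (2.55, SE 0.18), which serve uptake, transport and storage of retinol. STRA6, RBP4 and LRAT were all under 0.3 TPM in every ePP library, so they passed the filter only through the ePP-β libraries and could be tested only because they were higher there. Of the target genes 10 of 12 were tested, 5 were called higher and 3 lower. Higher were PLAAT4 (4.48), TGM2 (2.52), TSHZ1 (2.35), RARRES1 (1.75) and NRIP1 (1.25), and ZNF703 (-1.35) was among the lower. PLAAT4 and TGM2 also passed the filter only through the ePP-β libraries. The target genes therefore did not move in 1 direction.

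Other cell type markers moved with this comparison. The 5 liver markers summed to between 164.8 and 193.4 TPM in ePP and to 14750 and 17410 TPM in ePP-β, mostly TTR, and all 5 were called higher. The 9 mesenchyme markers summed to between 46.7 and 72.2 TPM in ePP and 56.2 and 43.5 TPM in ePP-β, with 1 of 6 tested called in each direction. Of 4 stomach and intestine markers tested TFF1 (3.22), VIL1 (2.61) and TFF2 (2.23) were called higher and CDX2 (-2.47) lower. The 1 endothelial marker tested, EGFL7 (1.69), was called higher, from 54.1 to 66.7 TPM in the ePP libraries. The other endothelial markers did not pass the filter. In batch 2 PECAM1 and CDH5 did not exceed 0.0483 and 0.0787 TPM. TEK went the other way, at 0.363 to 0.744 TPM in ePP and as low as 0.0152 TPM in ePP-β. The part of other cell types in the differences was not tested. Another scaling, quantile normalization, moved the median of all genes from -0.03 to -0.19 and the split of calls from 3237 higher and 1783 lower to 2592 and 2866, and the 4 genes named as called kept their calls under it.

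Passage 21 was compared with passage 9 to see whether the ePPs kept their levels in culture. None of the 7 genes tested was called by limma, beside 1.07% of all 15822 genes called higher and 0.0569% lower. At an unadjusted p under 0.05, 1 gene of the 7 was higher and 0 lower, against 19.1% and 3.91% of all genes. That gene was ALDH1A1, at 452 ± 19.6 TPM at passage 9 and 539 ± 16.2 TPM at passage 21 (n = 2 each), with a log2 fold change of 0.25 (interval 0.07 to 0.44, limma adjusted p = 0.126). After median centring of each library it was 0.05.

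For the other genes the intervals reflect the spread between these libraries alone. They ran from -0.21 to 0.29 for ALDH1A2 (log2 fold change 0.04), from -0.08 to 0.43 for DHRS3 (0.17) and from -0.27 to 0.50 for CYP26B1 (0.12). For RARA (-0.07) the interval was -0.43 to 0.29, for CRABP2 (-0.06) -0.56 to 0.44 and for RARB (0.27) -0.36 to 0.90. The median of all genes was 0.13, and -0.07 after median centring of each library. That centring, and others, turned the sign of ALDH1A2, DHRS3 and CYP26B1, so no direction is given for them. RARG, ALDH1A3 and CYP26A1 did not pass the filter on low values. Of 14 other pathway genes and 8 target genes tested none was called, and those at an unadjusted p under 0.05 were RDH11 (0.41), a retinol dehydrogenase, FABP5 (-0.32) and ZNF703 (-0.31).

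The I-BET151 experiment asked what inhibition of BET proteins changes in pancreatic progenitors. None of the 8 genes tested was called by limma, beside 0.00599% of 16687 genes called higher and 0.204% lower. ALDH1A3 and CYP26A1 did not pass the filter. Their means were 0.866 and 0.00851 TPM in DMSO and 0.0542 and 0.0632 TPM in I-BET151, so CYP26A1 was higher with I-BET151, at very low levels. With DESeq2 and the same thresholds the paper reports many more changed genes in this comparison. A gene left uncalled here may thus still differ. All 8 log2 fold changes were below 0, with a median of -0.57, whereas 39.1% of all genes were below 0 and their median was 0.16. At an unadjusted p under 0.05 0 genes were higher and 1, RARG, was lower, beside 6.21% and 8.98% of all genes.

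RARG was at 4.20 ± 0.66 TPM in DMSO and 1.13 ± 0.88 TPM in I-BET151 (n = 2 each), a log2 fold change of -1.35 (interval -2.37 to -0.32, limma adjusted p = 0.219). It was called in the fit of all 10 replicated libraries (limma adjusted p = 0.0271), which takes its spread from batches 2 and 3 together. The filter kept it through the DMSO libraries, since 1 I-BET151 library was under 1 TPM. ALDH1A1 was at 270.9 ± 27.3 and 169.5 ± 61.8 TPM (-0.72, limma adjusted p = 0.447), DHRS3 at 65.6 ± 20.2 and 37.7 ± 9.47 TPM (-0.77, limma adjusted p = 0.421) and RARA at 33.6 ± 5.86 and 24.8 ± 5.29 TPM (-0.43, limma adjusted p = 0.608). In these 4 of the 8 tested genes the I-BET151 libraries lay below both DMSO libraries. Over all tested genes 18.0% had I-BET151 libraries lying below and 28.7% above without overlap.

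For the rest the libraries overlapped, and the difference between replicates was larger than that between treatments. CRABP2 (-0.71, interval -2.62 to 1.20), ALDH1A2 (-0.40, -1.84 to 1.05), CYP26B1 (-0.28, -1.48 to 0.91) and RARB (-0.03, -1.04 to 0.97) had wide intervals. In the first 3 of these, replicate 2 was the lower library of both groups. In replicate 1 ribosomal protein genes took 20.4% (DMSO) and 16.8% (I-BET151) of the TPM, and in replicate 2 27.9% and 27.8%. Leaving out I-BET151 replicate 2 turned the log2 fold changes of ALDH1A2 (0.26), CYP26B1 (0.12) and CRABP2 (0.21) above 0, leaving out DMSO replicate 1 turned those of ALDH1A2 (0.0053), CYP26B1 (0.13) and RARB (0.32), and leaving out I-BET151 replicate 1 turned that of RARB (0.24). The 8 of 8 below 0 therefore held with all 4 libraries and without DMSO replicate 2, and RARB was at 0.10 under quantile normalization.

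Of 16 other pathway genes tested RBP4 was called lower, from 19.2 ± 4.05 TPM to 0.607 ± 0.160 TPM (log2 fold change -3.64, limma adjusted p = 0.0480), and 0 were called higher. That call is lost with pseudocounts of 0.1 and 0.01 and with no filter, where limma called no gene at all, and RBP4 was under 1 TPM in both I-BET151 libraries and passed the filter only through DMSO. STRA6, the receptor for RBP4, was at 4.80 ± 2.79 and 0.516 ± 0.319 TPM (-1.86, limma adjusted p = 0.157). Of 9 target genes tested 0 were called. At an unadjusted p under 0.05 3 were higher, among them MEIS2 (0.95), and 1, TGM2 (-2.08), lower. RBP4 is also a major product of liver cells, and the 5 liver markers summed to 9840 and 8629 TPM in DMSO and 986 and 2354 TPM in I-BET151, all 5 below 0. Stomach and intestine markers summed to 925 and 513 TPM in DMSO and 193 and 130.1 TPM in I-BET151, with all 4 tested below 0. Mesenchyme markers summed to 199.5 and 90.3 TPM in DMSO and to 83.0 and 43.7 TPM in I-BET151. Of 7 mesenchyme markers tested 5 were below 0 and 2, PDGFRA (0.40) and PDGFRB (0.17), above. The part of these cell types in the lower levels of RBP4, ALDH1A1 or RARG was not tested.

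The ePPs are themselves grown with I-BET151 and the DMSO cells are not, but the groups are in different batches and are given side by side only. RARG was at 0.508 to 0.881 TPM in ePP, 0.509 and 1.75 TPM in I-BET151 and 3.73 and 4.67 TPM in DMSO. CRABP2 was at 2.91 to 3.19 TPM in ePP, 4.82 and 19.7 TPM in I-BET151 and 10.9 and 26.2 TPM in DMSO. RARA had the same order, with 15.3 to 18.6 TPM in ePP, 21.02 and 28.5 TPM in I-BET151 and 29.5 and 37.8 TPM in DMSO. ALDH1A1 did not follow this order, with 438 to 551 TPM in ePP, 126 and 213 TPM in I-BET151 and 252 and 290.2 TPM in DMSO. Nor did ALDH1A2, with 111 to 129 TPM in ePP, 13.4 and 34.7 TPM in I-BET151 and 21.6 and 38.4 TPM in DMSO. The ePP range overlapped that of I-BET151 for RARG, DHRS3 and RARB and that of DMSO for RARB and CYP26B1. At very low levels it also overlapped that of I-BET151 for ALDH1A3 and that of DMSO for CYP26A1.

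Genes with the most similar pattern were sought over the 9 group means of log2(TPM + 1) among 12520 genes. These are descriptions over 9 points that share batches. CYP26A1 was closest to TDGF1P3 (Pearson r = 0.997) and ALDH1A3 to ARHGAP40 (0.987), with CYP26A1 in the third place (0.983). ALDH1A1 was closest to FNIP2 (0.990), CRABP2 to C1orf54 (0.990), RARG to MYOZ3 (0.978), DHRS3 to CLU (0.969) and RARA to ARMCX6 (0.961). ALDH1A2 was closest to RPL32P29 (0.968), a ribosomal protein pseudogene, and CYP26B1 to TPT1 (0.974), KLF5 (0.972) and the ribosomal protein gene RPL7 (0.959). Within the 10 genes the pair of ALDH1A2 and CYP26B1 had r = 0.938, that of CRABP2 and RARG 0.960, and that of ALDH1A1 and CYP26A1 -0.932.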

How the data were processed

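Total RNA was sequenced in 14 libraries of 9 groups. Per the labels and the methods, reads were aligned to GRCh38 with HISAT2 2.1.0, and StringTie gave TPM. The deposited values are TPM per Ensembl gene identifier, with transcripts summed by the authors. Which annotation release was used, and whether strand was, is not given in the sources used here. TPM keeps no counts, so depth is unknown and no counting interval is given. All 37 mitochondrial genome genes were listed at 0, so an exact 0 is reported only as listed.

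Symbols and positions came from GENCODE 44 (60370 of 60624 identifiers matched). limma 3.58.1 in R 4.3.3 was run on log2(TPM + 1), a scale that understates the change of low genes, keeping genes that reached 1 TPM in 2 or more libraries of a fit, within a batch, two-sided. For ePP, both passages were averaged with equal weight. ± is the SD. Steps of batch 1 had no test. The code was tested on simulated data. No 2 libraries of a group were copies: at least 15808 genes at 1 TPM or more had unequal values, with no tolerance. The 10 genes, the lists and the tests were chosen with earlier results of these data known. All 10 genes are named in every comparison; of the other lists, counts cover the whole list and genes past the call or the fold are named, except a few that are not reported here. Alternatives were other pseudocounts, filters and scalings, the replicate number as a block, no trend, all 10 replicated libraries together and each library left out.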

Additional observations from a re-analysis of the deposited data

How the results depend on the processing

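Of the single-gene values 373 were the same across the alternatives, 26 without a test moved, 19 reversed, 4 were newly called and 2 lost. With a test, the same means an unchanged direction and call. In the batch 1 steps (25, 19 and 24 values) it means a shift smaller than the pooled replicate SD of the gene. The replicate numbers are shared by name only: the replicate differences of DMSO and I-BET151 correlated at 0.675 across genes, but with only 2 pairs and no label for a shared culture, and those of the ePP groups at -0.00933 to 0.0424. With the replicate block RARG was called lower in I-BET151 (limma adjusted p = 0.0310), 1 gene of the 8 instead of 0. The block gave 2294 called genes instead of 35 in that comparison and 66 instead of 178 between passages, and no other call among the 10 genes changed.

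Genes called with I-BET151 were 0 with pseudocounts of 0.1 and 0.01 and with no filter, 120 with median centring, 138 with quantile normalization, 78 without ribosomal protein genes and 1673 in the fit of all 10 replicated libraries, where 1 of the 10 genes, RARG, was called. Leaving out 1 library gave 107 to 1034, and log2 fold changes of -1.06 to 0.26 for ALDH1A2, -0.70 to 0.13 for CYP26B1, -1.62 to 0.21 for CRABP2 and -0.39 to 0.32 for RARB, which was 0.10 with quantile normalization. Genes called between passages were 0 with no filter or median centring, 13 with quantile normalization, 1 without the trend and 1 in the fit of all 10 libraries, and 0 to 478 with 1 library left out. There ALDH1A2 was -0.17 with centring, -0.012 with quantile normalization and -0.0068 without ribosomal protein genes, DHRS3 -0.032 with centring, and CYP26B1 -0.088 and -0.048 with centring and quantile normalization. With 1 library left out ALDH1A2 ran from -0.072 to 0.15, CYP26B1 from -0.063 to 0.30 and RARA from -0.18 to 0.036. Between ePP-β and ePP, RARB was -0.32 with quantile normalization. A filter of 5 TPM left 3074 of 4789 genes past the fold from hPSC to DE, since fewer genes were compared. For the others the cause was not tested. Depth is unknown, so differences at low TPM cannot be judged against counting error.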
